A study of Arabidopsis thaliana with 12 samples.

Results

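The enzymes that make and turn over jasmonates were followed in leaves of Arabidopsis (Col-0) through the mRNA of 10 genes, taken by their gene identifiers from a table of 32954 genes. They are *LOX2* (AT3G45140), *LOX3* (AT1G17420), *LOX4* (AT1G72520), *AOS* (AT5G42650), *AOC1* (AT3G25760), *AOC2* (AT3G25770), *AOC3* (AT3G25780), *OPR3* (AT2G06050), *JAR1* (AT2G46370) and *CYP94B3* (AT3G48520). Messenger RNA was sequenced from leaf tissue of wild types, of 1 line that overexpresses the plastidic glucose transporter gene *pGlcT2* (line #5) and of *glct2*, in which that gene is knocked out, as 4 biological replicates per genotype. All plants were raised for 24 days under short days, after which the lamps stayed on for 10 to 12 days at an irradiance between 100 and 120 μmol m−2 s−1. Light was thus shared by the groups and was not compared. The question was how gene expression changes under permanent light when *pGlcT2* is raised or missing. In line #5 the *pGlcT2* cDNA is driven by the 35S promoter of cauliflower mosaic virus, which is active in most cell types. The *glct2* line carries a T-DNA in the first intron of the gene. The study's results describe the overexpressing lines as made in *glct2*, whereas its methods name that background for the complemented line, so the background of line #5 is uncertain. Each mutant is represented by 1 line, and whether a replicate held 1 plant or several is not given in the sources used here.

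Jasmonates are lipid hormones of wounding, herbivory, stamen development and senescence. Plastidic lipoxygenases (LOX2, LOX3, LOX4) oxygenate linolenic acid released from plastid membranes. Allene oxide synthase (AOS) and the allene oxide cyclases (AOC1, AOC2, AOC3) turn the product into oxophytodienoic acid (OPDA), which leaves the plastid. In peroxisomes OPR3 reduces OPDA, and beta-oxidation shortens the chain to jasmonic acid. JAR1 conjugates jasmonic acid to isoleucine, which gives the hormone form that the receptor COI1 binds together with a JAZ repressor. CYP94B3 hydroxylates this conjugate and so starts its breakdown. Many of these enzyme genes are themselves induced by jasmonate through MYC transcription factors, which bind the G-box and related hexamers.

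The levels are given as FPKM, which are reads scaled by gene length and by library size. Whole reads could be recovered from them and summed to 17448191 to 24276381 per library, so that 1 read in a gene of 1 kilobase equals 0.0425 to 0.0553 FPKM. *pGlcT2* itself was at 8.26 to 10.1 FPKM in wild types, rose to 180 to 237 FPKM in the overexpressor and fell to 2.65 to 3.89 FPKM in *glct2*, in the order that the labels give. Reads of the gene thus remained in *glct2*, and FPKM per gene do not show whether they come from an intact mRNA. The leaf genes *RBCS1A* and *RCA* were abundant in all 12 libraries. Of a root list of 6 genes, the 3 root hair genes (*EXPA7*, *COBL9* and *RHD6*) were at or near 0. The whole root list summed to 9.14 to 26.1 FPKM per library, and 2 of its genes reached the level needed for testing. Differences were tested with limma on log2(FPKM + 1) in one fit over the 3 genotypes, on the 18354 genes that reached 1 FPKM in 4 or more libraries. The threshold for a call was a p under 0.05 after Benjamini-Hochberg adjustment over all of them. Fold changes on this scale understate changes of genes near 1 FPKM. The deposited library sizes and the sums of recovered reads scale the libraries differently. Rescaling to the latter moved the median of all genes by 0.12 (log2) in the overexpressor and by 0.097 in *glct2*. The share of called genes that were higher then went from 48.6 to 70.4% and from 42.6 to 84.1%. Both mutants were compared with the same 4 wild-type libraries.

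All 10 genes passed the filter. In wild types *LOX2* had the highest level per length, 975 ± 302 FPKM (SD, n = 4), followed by *AOC2* at 265 ± 99.7 FPKM, *AOS* at 180 ± 51.9 FPKM, *AOC1* at 82.2 ± 40.2 FPKM and *OPR3* at 59.7 ± 11.4 FPKM. *JAR1* was at 26.9 ± 2.08 FPKM, *LOX3* at 11.5 ± 3.36 FPKM, *LOX4* at 7.77 ± 2.48 FPKM, *AOC3* at 6.20 ± 1.40 FPKM and *CYP94B3* at 0.935 ± 0.652 FPKM. *LOX2*, *AOC2* and *AOS* kept this order in each of the 12 libraries. *AOC1* and *OPR3* changed places in wild-type replicate 4 (41.3 and 46.0 FPKM), so their order in wild types is not beyond the spread. *LOX3* exceeded *LOX4* in all libraries. *AOC3* had less than *LOX4* in the 4 wild-type libraries but more in 3 of the 4 overexpressor libraries.

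**Figure D1:**
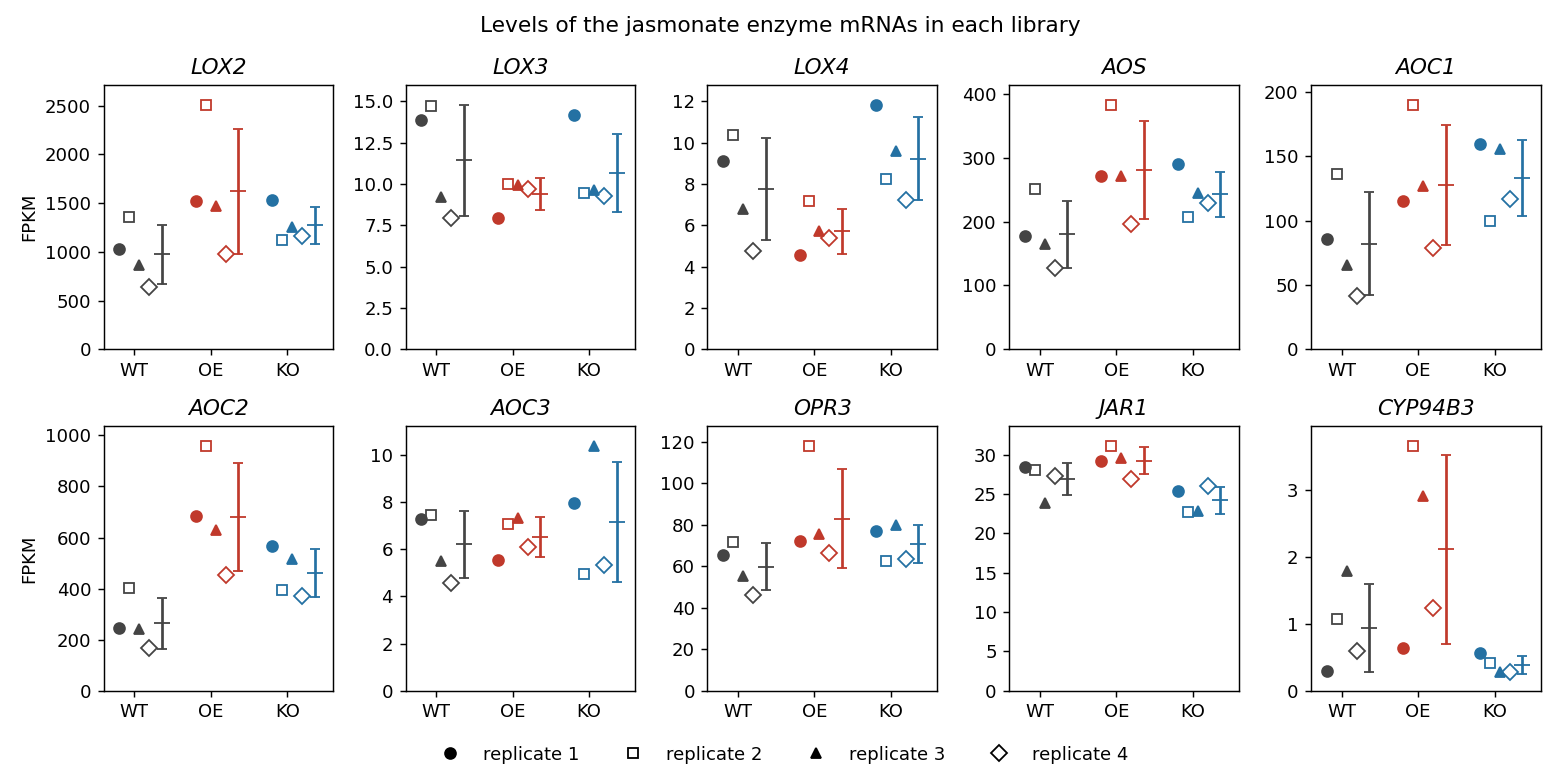
FPKM (y axis, linear, from 0) of the 10 jasmonate enzyme mRNAs in the 4 libraries of wild types (WT), the overexpressor (OE) and *glct2* (KO), with the replicate number as the symbol and the mean and SD as the bar beside them. All overexpressor libraries of *AOC2* lie above all wild-type libraries, and those of *LOX4* lie below all *glct2* libraries.

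In the overexpressor, *AOC2* and *AOS*, genes of the middle of the plastid branch, were higher than in wild types and passed the test. None of the 10 genes was called lower. Among all genes tested 38.6% were called in this comparison (18.7% higher and 19.9% lower), so 2 of 10 is not more than the table as a whole gives. Before adjustment, 4 of the 10 had a p under 0.05 and were higher (23.5% of all genes), and 0 were lower (24.1%). Voom on the recovered reads called 5 higher and 0 lower, where it called 31.5% of all genes higher and 13.2% lower. The median log2 fold change of the 10 was 0.54, beside 0.0033 for all genes tested, and 0.33 without overexpressor replicate 2. From leaf RNA it cannot be told whether more cells hold such an mRNA or each cell holds more of it. In *glct2* none of the 10 was called, where 4.57% of all genes were. Before adjustment 2 of 10 had a p under 0.05 there, both higher (10.7% of all genes) and 0 lower (11.6%), and voom on the recovered reads called 1 higher (*AOC2*, beside 6.69% of all genes) and 0 lower (1.36%). The median there was 0.25 beside 0.0018, and 0.098 without wild-type replicate 4. Between the mutants, *JAR1* and *CYP94B3* were higher and *LOX4* was lower in the overexpressor, 3 of 10 where 33.5% of all genes were called.

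**Figure D2:**
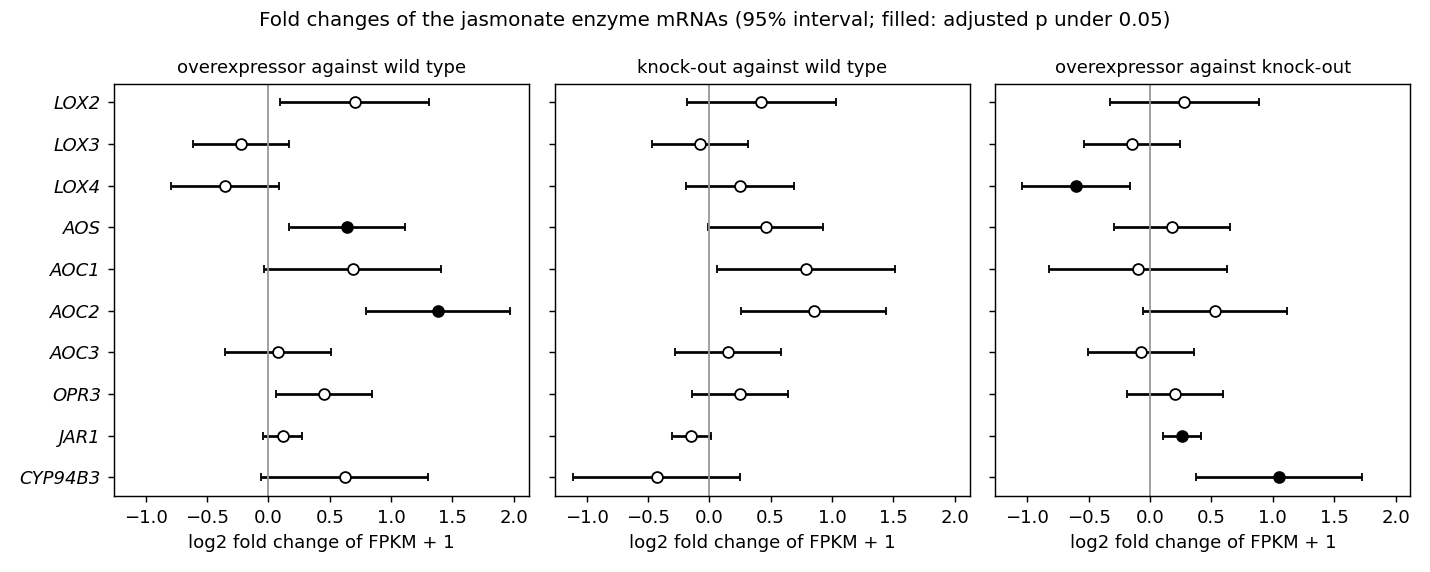
Log2 fold change of FPKM + 1 (x axis) for each gene in 3 comparisons, with 95% intervals and filled points for an adjusted p under 0.05. *AOC2* (1.38) and *AOS* (0.64) are filled in the overexpressor against wild types, no gene in *glct2*, and *LOX4* (-0.60), *JAR1* (0.26) and *CYP94B3* (1.05) between the mutants.

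*AOC2* encodes a cyclase that sets the stereochemistry of OPDA, and it had the largest fold change against wild types. Its level was 247, 404, 241 and 167 FPKM in wild-type replicates 1 to 4. In the overexpressor it was 683, 959, 630 and 451 FPKM. All 4 of these exceeded every wild-type library. It had a log2 fold change of 1.38 ± 0.27 (SE, adjusted p = 0.00174 from limma), and it stayed called under each of the 10 other settings tried and without any single library (adjusted p from 0.00039 to 0.0067). Of the 10 genes, *AOC2* was the only one whose overexpressor and wild-type libraries did not overlap. Of all genes tested, 34.5% did not overlap in this comparison (15.9% higher and 18.5% lower). In *glct2* its level was 565, 396, 514 and 370 FPKM, which overlapped with wild-type replicate 2 alone. None of the 10 genes had *glct2* libraries wholly apart from wild types, where 16.9% of all genes tested did (7.5% higher and 9.43% lower). For *AOC2* in *glct2* the log2 fold change was 0.85 (95% interval 0.26 to 1.44, adjusted p = 0.0912 from limma). Voom on the recovered reads (adjusted p = 0.0482), library quality weights (adjusted p = 0.0217) and leaving out wild-type replicate 2 (adjusted p = 0.0397) brought it past the threshold. The difference between the mutants did not pass for *AOC2* (0.53, 95% interval -0.056 to 1.12, adjusted p = 0.149 from limma).

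The neighbouring cyclase genes were not called. *AOC1* had 85.6, 136, 65.8 and 41.3 FPKM in wild types. It had 115, 190, 126 and 78.7 FPKM in the overexpressor and 160, 99.6, 156 and 117 FPKM in *glct2*. The groups overlapped, and wild types alone spanned 3.29-fold. It had a log2 fold change of 0.69 ± 0.33 (SE, adjusted p = 0.122 from limma) with overexpression and 0.79 (adjusted p = 0.187) in *glct2*. Without wild-type replicate 2 the former was 0.97 and passed (adjusted p = 0.0257), as it did with library quality weights (adjusted p = 0.0469). *AOC3* ranged from 4.58 to 7.45 FPKM in wild types, from 5.56 to 7.34 FPKM with overexpression and from 4.94 to 10.4 FPKM in the knock-out. Its log2 fold changes were 0.077 (95% interval -0.36 to 0.51) and 0.15 (-0.28 to 0.58), and their sign turned when wild-type replicate 4 (-0.038) or *glct2* replicate 3 (-0.026) was left out.

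The cluster lies on the plus strand of chromosome 3 (TAIR10), with *AOC1* at chr3:9403779-9405338, *AOC2* at chr3:9406669-9408071 and *AOC3* at chr3:9409160-9411090. Only 1330 and 1088 bases separate the neighbours, and each gene has 2 exons and 1 intron. Coding sequences were 90.3% identical between *AOC1* and *AOC2*, 82.7% between *AOC1* and *AOC3* and 82.4% between *AOC2* and *AOC3*. The longest run of bases that 2 of the mRNAs share is 47 for the first pair, 73 for the second and 50 for the third, and no window of 100 bases is shared. How the counting treated reads that match 2 genes is not given in the sources used here, so short reads from such stretches leave some uncertainty in how the cyclase reads were split. A stretch of the coding sequences, centred on the longest run that *AOC1* and *AOC2* share, is shown to let this be judged. It covers 120 bases of exon sequence at chr3:9404889-9405008 (*AOC1*), chr3:9407623-9407742 (*AOC2*) and chr3:9410193-9410312 (*AOC3*) in RefSeq TAIR10.1, and capitals mark bases that differ from *AOC2*.
AOC1: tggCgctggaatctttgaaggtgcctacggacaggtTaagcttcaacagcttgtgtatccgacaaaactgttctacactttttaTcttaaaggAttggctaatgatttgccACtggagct
AOC2: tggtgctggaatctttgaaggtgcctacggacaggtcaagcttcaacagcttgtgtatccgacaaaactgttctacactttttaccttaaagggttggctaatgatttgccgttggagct
AOC3: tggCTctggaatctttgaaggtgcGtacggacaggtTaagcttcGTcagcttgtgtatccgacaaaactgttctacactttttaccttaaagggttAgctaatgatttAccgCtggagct
*AOC1* differs from *AOC2* at 6 and *AOC3* at 9 of these bases.

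*AOS*, the gene of the enzyme that commits lipid hydroperoxides to this branch, was the other gene called in the overexpressor. Wild types had 177, 251, 164 and 128 FPKM. The overexpressor had 271, 383, 270 and 197 FPKM. One overexpressor library (replicate 4) lay within the range of wild types. It had a log2 fold change of 0.64 ± 0.22 (SE, adjusted p = 0.0342 from limma). The adjusted p rose to 0.0641, 0.0757 and 0.104 on leaving out replicate 1, 3 or 4 of wild types, and the call was likewise lost without overexpressor replicate 1 (0.0645), 2 (0.0853) or 3 (0.065). It was also lost with no filter (adjusted p = 0.052) and when the 2 groups were fitted alone (0.0661), with positive values throughout. In *glct2*, *AOS* was at 290, 207, 245 and 228 FPKM, a log2 fold change of 0.46 (95% interval -0.011 to 0.93, adjusted p = 0.235 from limma).

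*LOX2*, which supplies much of the jasmonate of wounded leaves, had 1034, 1357, 866 and 641 FPKM in wild types. In the overexpressor it had 1527, 2513, 1468 and 979 FPKM, and in *glct2* 1537, 1123, 1261 and 1166 FPKM. Overexpressor replicates 1, 2 and 3 exceeded all wild types, and replicate 4 did not. It had a log2 fold change of 0.70 ± 0.28 (SE, adjusted p = 0.064 from limma) in the overexpressor, so it did not pass. It passed with the rescaling to recovered reads (adjusted p = 0.0337), voom (0.028), library quality weights (0.022), without wild-type replicate 2 (0.0282) and without overexpressor replicate 4 (0.0175). In *glct2* the log2 fold change was 0.43 (95% interval -0.18 to 1.03, adjusted p = 0.402).

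*LOX3* and *LOX4*, whose enzymes act with LOX2 in the plastid and are needed together for male fertility, stood at far lower levels than *LOX2*. *LOX4* had 9.12, 10.4, 6.80 and 4.78 FPKM in wild types, 4.55, 7.16, 5.70 and 5.37 FPKM in the overexpressor and 11.8, 8.22, 9.58 and 7.24 FPKM in *glct2*. The highest overexpressor library was just under the lowest *glct2* library. *LOX4* was called lower in the overexpressor than in *glct2* (log2 fold change -0.60 ± 0.20 SE, adjusted p = 0.0378 from limma). The adjusted p rose to 0.0993, 0.0704 and 0.0731 without overexpressor replicate 1, 3 or 4 and to 0.107, 0.0556 and 0.0801 without *glct2* replicate 1, 2 or 3. It was 0.0585 with no filter, 0.0523 after rescaling and 0.0514 with voom. Against wild types, neither mutant passed (-0.35, adjusted p = 0.187, and 0.25, adjusted p = 0.515), except for the overexpressor without wild-type replicate 4 (-0.54, adjusted p = 0.0373). *LOX3* had 13.9, 14.7, 9.22 and 7.97 FPKM in wild types, 7.97, 10.0, 9.92 and 9.73 FPKM in the overexpressor and 14.2, 9.49, 9.62 and 9.30 FPKM in *glct2*. Its groups overlapped (log2 fold change -0.22, 95% interval -0.62 to 0.17, in the overexpressor, and in *glct2* -0.076 with an interval of -0.47 to 0.32). The value in *glct2* changed sign with rescaling (0.024), voom (0.031) and library weights (0.0083) and without wild-type replicate 1 or 2 (up to 0.051). *LOX3* and *LOX4* lie far apart on chromosome 1 and have coding sequences that are 80.7% identical, with a longest shared run of 24 bases.

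*OPR3*, whose enzyme opens the peroxisomal part of the pathway, had 65.6, 71.8, 55.5 and 46.0 FPKM in wild types. It had 72.4, 118, 75.3 and 66.2 FPKM in the overexpressor and 76.9, 62.3, 79.8 and 63.3 FPKM in *glct2*. Overexpressor replicate 2 stood above the other 11 libraries. The log2 fold change in the overexpressor was 0.45 ± 0.18 (SE, adjusted p = 0.0659 from limma) and did not pass. It passed after rescaling (adjusted p = 0.0291), with voom (0.0255), with library quality weights (0.0404), without wild-type replicate 2 (0.0407) and without overexpressor replicate 4 (0.04). In *glct2* it was 0.25 (95% interval -0.14 to 0.64).

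*JAR1*, the conjugating enzyme, was the steadiest of the 10 genes. Wild types had 28.4, 28.0, 23.9 and 27.3 FPKM. The overexpressor had 29.2, 31.1, 29.5 and 26.9 FPKM, and *glct2* had 25.3, 22.7, 22.8 and 26.0 FPKM. Every overexpressor library lay above every *glct2* library, with wild types between and overlapping both. The difference between the mutants was 0.26 ± 0.072 (log2 ± SE, adjusted p = 0.0147 from limma) and stayed called under each of the 10 other settings tried and without any single library (highest adjusted p 0.0472). Against wild types, *JAR1* had 0.12 (log2, adjusted p = 0.222) with overexpression and -0.15 (adjusted p = 0.256) in *glct2*. After rescaling or with voom the overexpressor passed (0.24, adjusted p = 0.0234, and 0.25, adjusted p = 0.0226).

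*CYP94B3*, the hydroxylase that starts turnover, was scarce, with 10 to 78 reads per wild-type library, 29 to 141 per overexpressor library and 11 to 21 per *glct2* library. These are 0.287, 1.07, 1.78 and 0.595 FPKM in wild types, 0.642, 3.65, 2.90 and 1.23 FPKM in the overexpressor and 0.567, 0.419, 0.276 and 0.277 FPKM in *glct2*. No overexpressor library was as low as any *glct2* library, while wild types spanned 6.21-fold and overlapped both. The mutants differed by 1.05 ± 0.31 (log2 ± SE, adjusted p = 0.0219 from limma). The size depends on the pseudocount at this level, 2.15 with a pseudocount of 0.1 and 0.38 with 5. The call was lost without overexpressor replicate 2 (adjusted p = 0.0522) or 3 (0.0661) and without *glct2* replicate 3 (0.0509), and the gene was below a filter at 5 FPKM. Against wild types the overexpressor had 0.62 (adjusted p = 0.135, but 0.89 and adjusted p = 0.032 without overexpressor replicate 1) and *glct2* had -0.43 (adjusted p = 0.456). Of the 10 genes 3 (*LOX4*, *JAR1* and *CYP94B3*) thus had mutants that did not overlap, where 32.4% of all genes tested did not (15.4% higher and 16.9% lower in the overexpressor).

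The spread among replicates of a genotype was large for 9 of the 10 genes, and 8 of them, all but *CYP94B3*, shared the same highest and the same lowest wild-type library. The residual SD on the log2(FPKM + 1) scale was 0.54 for *AOC1*, 0.43 for *LOX2*, 0.43 for *AOC2*, 0.34 for *AOS* and 0.29 for *OPR3*, beside a median of 0.14 over all genes tested. It was larger than that of 87.2 to 97.6% of the genes tested for every gene but *JAR1* (0.098, larger than 23.7%). In wild types, replicate 2 was the highest and replicate 4 the lowest library for 8 of the 10 genes, all but *JAR1* and *CYP94B3*. Replicate 2 was the highest wild-type library for 29.0% of all genes tested, and replicate 4 the lowest for 24.3%. In the overexpressor, replicate 2 was highest for 9 of the 10 genes (31.3% of all genes tested), and replicate 4 was lowest for 6 of them (31.2%). In *glct2*, replicate 1 was highest for 7 of the 10 genes (19.9% of all genes tested) and replicate 2 lowest for 6 (21.2%). Wild types and the overexpressor thus shared the numbers of their highest and lowest libraries for most of these genes, whereas *glct2* did not. Depth did not follow this order in wild types, where replicate 2 had 23097352 and replicate 4 had 21710618 reads, with replicates 1 and 3 beyond both. The cause of the spread was not tested.

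**Figure D3:**
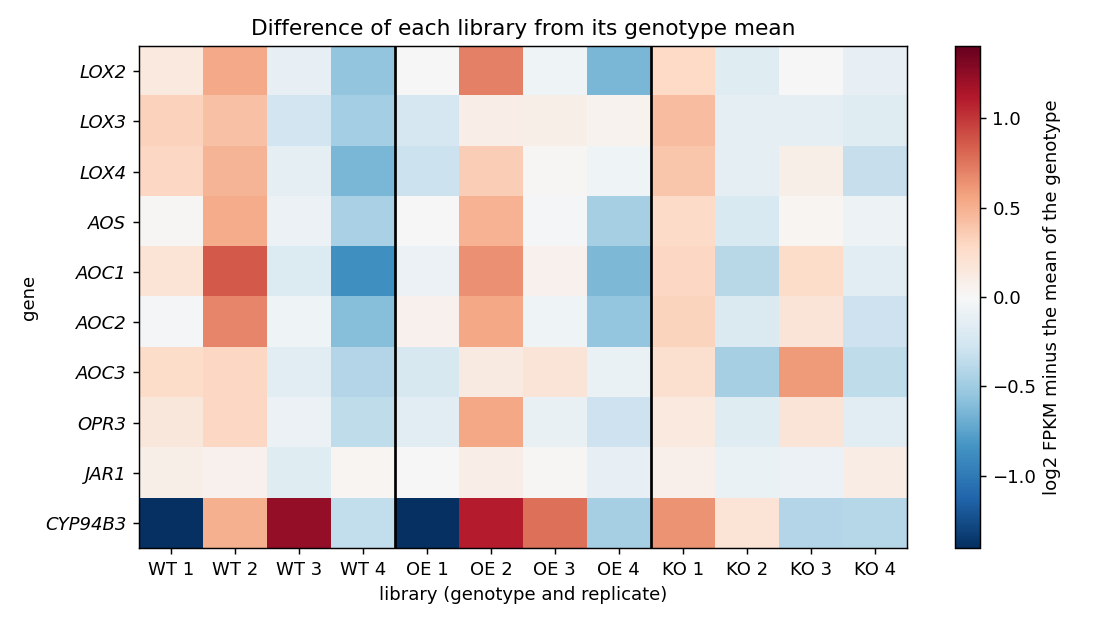
Log2 FPKM of each gene (rows) in each library (columns, by genotype and replicate) minus the mean of its genotype, in red where higher and blue where lower. Replicate 2 of wild types (WT) and of the overexpressor (OE) and replicate 1 of *glct2* (KO) are red, and replicate 4 of wild types is blue, for most genes.

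Because most of the genes shared their highest and lowest libraries in wild types, while *JAR1* and *CYP94B3* did not, ratios within a library were compared too, which was decided after their values had been seen. All 45 pairs of the 10 genes were taken, with an exact two-sided permutation test over the 70 ways to split 8 libraries into 2 groups of 4. The smallest p this design allows is 0.0286. The ratio did not overlap between the overexpressor and wild types in 18 of 45 pairs (40.0%), where 36.4% of all pairs of genes tested did not. It was 10 of 45 (22.2%, beside 15.5%) for *glct2* against wild types and 16 of 45 (35.6%, beside 33.0%) between the mutants. These shares are near those of any 2 genes. After adjustment over the 45 pairs none passed (lowest adjusted p 0.0714, 0.129 and 0.0804 from the exact permutation test). With a smallest p of 0.0286, a pair could pass this adjustment only if most of the 45 pairs did not overlap. That none passed therefore says little. The pairs share genes and are not independent.

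Values of 4 ratios among cyclase and lipoxygenase genes follow as a description, picked after they had been seen. The *AOC1* to *AOC2* ratio was 0.346, 0.337, 0.273 and 0.248 in wild types. In *glct2* it was 0.282, 0.252, 0.303 and 0.314. In the overexpressor it was 0.168, 0.198, 0.201 and 0.174, below all other libraries. *LOX2* exceeded *LOX4* 113- to 134-fold in wild types, 130- to 161-fold in *glct2* and 182- to 351-fold in the overexpressor. Its ratio to *LOX3* was 74.5 to 94.0 in wild types. The ratio was higher in both mutants, at 101 to 251 (overexpressor) and 108 to 131 (*glct2*). The *LOX3* to *LOX4* ratio was 1.36 to 1.67 in wild types and, overlapping with them, 1.40 to 1.81 in the overexpressor. In *glct2* it was 1.00 to 1.28, below both. Such a ratio shows unequal change and does not show which of the genes moved.

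**Figure D4:**
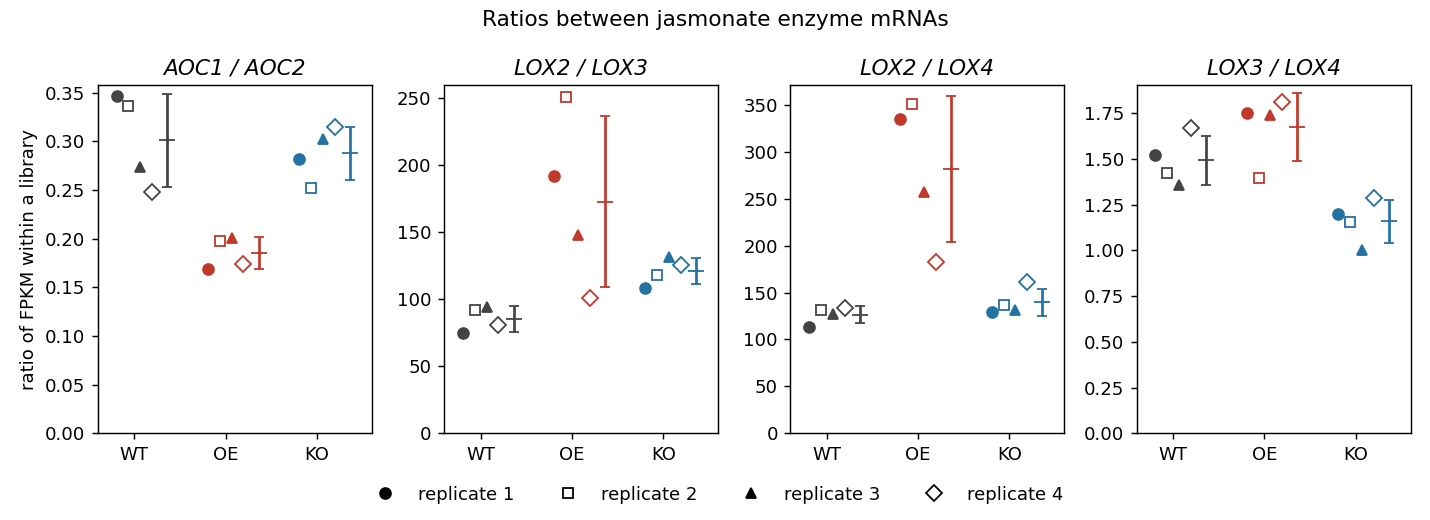
Ratio of FPKM of 2 genes within a library (y axis, linear, from 0) in wild types (WT), the overexpressor (OE) and *glct2* (KO), with the replicate number as the symbol and the mean and SD as the bar beside them. *AOC1* relative to *AOC2* is lowest in the overexpressor (0.168 to 0.201), and *LOX2* relative to *LOX4* is highest there (182 to 351).

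The promoters of the 5 enzyme genes with the highest levels in wild types (*LOX2*, *AOS*, *AOC1*, *AOC2* and *OPR3*) are printed to show which of the hexamers known to be bound by MYC factors they hold. They are the 250 bases before the annotated start of each gene in RefSeq TAIR10.1, 5′ to 3′ on the strand of the gene, and capitals mark a hexamer. The windows are chr3:16524995-16525244 (*LOX2*, plus strand), chr5:17099596-17099845 (*AOS*, minus strand), chr3:9403529-9403778 (*AOC1*, plus strand), chr3:9406419-9406668 (*AOC2*, plus strand) and chr2:2362376-2362625 (*OPR3*, minus strand).
LOX2: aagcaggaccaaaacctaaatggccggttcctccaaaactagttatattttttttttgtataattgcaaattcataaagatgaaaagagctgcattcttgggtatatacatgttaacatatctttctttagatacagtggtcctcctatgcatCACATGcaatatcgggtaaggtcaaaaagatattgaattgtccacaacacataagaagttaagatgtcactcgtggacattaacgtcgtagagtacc
AOS: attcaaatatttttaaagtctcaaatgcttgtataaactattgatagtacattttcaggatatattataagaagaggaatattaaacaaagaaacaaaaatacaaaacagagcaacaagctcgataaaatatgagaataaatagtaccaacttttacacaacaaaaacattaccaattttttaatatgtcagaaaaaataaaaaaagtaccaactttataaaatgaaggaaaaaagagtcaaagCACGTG
AOC1: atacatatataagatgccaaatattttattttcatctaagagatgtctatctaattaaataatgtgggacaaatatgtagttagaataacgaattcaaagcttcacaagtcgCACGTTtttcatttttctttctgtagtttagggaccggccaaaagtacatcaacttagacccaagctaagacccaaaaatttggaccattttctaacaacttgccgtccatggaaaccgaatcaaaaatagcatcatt
AOC2: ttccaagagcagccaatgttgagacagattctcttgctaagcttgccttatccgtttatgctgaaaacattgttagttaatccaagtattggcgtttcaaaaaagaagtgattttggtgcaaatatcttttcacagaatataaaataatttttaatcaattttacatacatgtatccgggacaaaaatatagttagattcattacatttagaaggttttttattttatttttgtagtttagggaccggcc
OPR3: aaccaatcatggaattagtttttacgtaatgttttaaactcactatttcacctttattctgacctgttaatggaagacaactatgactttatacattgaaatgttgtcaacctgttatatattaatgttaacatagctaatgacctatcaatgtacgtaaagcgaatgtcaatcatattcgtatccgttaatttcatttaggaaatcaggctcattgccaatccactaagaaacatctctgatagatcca
Searched on both strands were the G-box CACGTG, which is its own reverse complement, CACATG and the T/G-box AACGTG, which do not overlap in these windows. The G-box is present in *AOS* alone of the 10 genes, in the last 6 bases before the start, and 6.49% of 27443 promoters of this length hold one. CACATG is present in *LOX2*, 97 bases before the start, and in *LOX3* and *JAR1* (11.1% of promoters). AACGTG is present in *AOC1*, 138 bases before the start on the other strand, and in *LOX4* (7.54% of promoters). *AOC2*, *AOC3*, *OPR3* and *CYP94B3* hold none of the 3 within 250 bases. Within 1000 bases, AACGTG is present in *LOX2*, *LOX4*, *AOS*, *AOC1*, *OPR3* and *CYP94B3* (23.8% of promoters) and CACATG in *LOX2*, *LOX3*, *LOX4*, *AOC1* and *JAR1* (37.7% of promoters). A match is a description of the letters only, and *AOC2* has none in the window shown.

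The rest of the pathway was followed in 7 lists with 60 genes, of which 51 were tested. In the overexpressor 11 of the 51 were called higher and 8 lower, and in *glct2* 1 higher and 1 lower. As above, 18.7% and 19.9% of all genes were called higher and lower in the overexpressor, and 1.95% and 2.62% in *glct2*. Voom called 31.5% and 13.2% in the overexpressor and 6.69% and 1.36% in *glct2*. Before adjustment 23.5% and 24.1% had a p under 0.05 in the overexpressor, and 10.7% and 11.6% in *glct2*. These are the shares beside which the counts of each list below stand.

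Of the 5 tested genes for precursor lipids, 2 fell and 0 rose in the overexpressor (by limma, by voom and before adjustment 0 were higher). Both that fell are omega-3 desaturase genes that make linolenic acid. *FAD3*, of the endoplasmic reticulum, stood at 114 ± 9.59 FPKM in wild types and fell to 63.2 ± 8.31 FPKM (-0.84 ± 0.094 SE on the log2 scale, adjusted p = 3.69e-05 from limma), and all overexpressor libraries lay below the others. *FAD8*, of the plastid, fell from 21.1 ± 4.92 to 11.9 ± 5.69 FPKM (-0.84, adjusted p = 0.0276), a call that was lost when replicate 1, 3 or 4 of wild types or 3 or 4 of the overexpressor was left out (adjusted p 0.0583 to 0.0812). The remaining tested genes, *FAD7*, *PLIP2* and *PLIP3*, were not called, and the lipase genes *DAD1*, *DGL* and *PLIP1* were below the filter.

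Among the other lipoxygenases and plastid branch enzymes, *LOX1* rose in the overexpressor from 5.88 to 11.2 FPKM (0.80 on the log2 scale, adjusted p = 0.000491 from limma). *LOX5* fell from 3.83 to 2.49 FPKM (-0.47, adjusted p = 0.0011) and *LOX6* from 18.6 to 15.2 FPKM (-0.27, adjusted p = 0.0065). The *LOX6* call was lost after rescaling (-0.15, adjusted p = 0.14) and with voom (-0.16, adjusted p = 0.13), which called 2 of the 5 higher, with *AOC4* as the second (adjusted p = 0.0490), and 1 lower. *LOX1* and *LOX5* oxygenate another carbon of the fatty acid and do not feed jasmonate, whereas *LOX6* does. *AOC4* on chromosome 1 and *HPL1*, whose hydroperoxide lyase competes with AOS, were not called by limma, and in *glct2* 0 of the 5 genes were called (0 before adjustment and by voom).

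In the steps from OPDA to jasmonic acid, 3 of 10 genes rose in the overexpressor and 0 fell (4 and 0 by voom, 3 higher and 2 lower before adjustment). *OPR2* encodes a reductase of the OPR3 family outside the peroxisome, and it had 2.82, 4.34, 2.49 and 2.78 FPKM in wild types, 12.9, 11.5, 14.6 and 12.8 FPKM in the overexpressor and 4.91, 5.11, 4.68 and 5.05 FPKM in *glct2*. The 3 genotypes did not overlap. Its log2 fold change was 1.78 ± 0.12 (SE, adjusted p = 1.31e-06 from limma) with overexpression and 0.55 (adjusted p = 0.0269) in *glct2*. The latter call was lost without wild-type replicate 1, 3 or 4 and without any of the 4 *glct2* replicates (0.48 to 0.57, adjusted p 0.0562 to 0.0904). A block for the replicate number also removed it (adjusted p = 0.0563 from limma). The other 2 were *JASSY* (0.28, adjusted p = 0.00665), an OPDA export protein of the plastid envelope, and *ACX1* (0.30, adjusted p = 0.0392), an acyl-CoA oxidase of beta-oxidation. The *ACX1* call was lost when replicate 1, 3 or 4 of wild types or 3 or 4 of the overexpressor or 1 of *glct2* was left out (adjusted p 0.0522 to 0.108). No filter (adjusted p = 0.052 from limma), a replicate block (0.0676) and a fit of the 2 groups alone (0.071) removed it too. *PXA1*, the peroxisomal importer, fell in *glct2* from 18.7 ± 0.876 to 15.9 ± 0.384 FPKM (-0.22, adjusted p = 0.0375) and had 0.068 in the overexpressor. That fall was not called after rescaling (adjusted p = 0.23) or with voom (0.223), both of which called *PXA1* higher in the overexpressor (0.19 and 0.20). It was lost without 9 of the 12 libraries, all but wild-type replicate 3 and overexpressor replicates 2 and 4 (-0.24 to -0.20, adjusted p 0.0536 to 0.118), and with a replicate block (adjusted p = 0.0631 from limma).

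In the list of other conjugation, turnover and transport genes, 1 of 7 tested was called in the overexpressor and 0 in *glct2*, where 3 were higher before adjustment and voom called 0. *ILL6*, whose amidohydrolase cleaves jasmonoyl-isoleucine, rose from 11.2 ± 3.98 to 18.4 ± 4.62 FPKM (0.71 on the log2 scale, adjusted p = 0.0272 from limma) and had 0.55 (adjusted p = 0.183) in *glct2*. The call was lost when replicate 3 or 4 of wild types or 2 or 3 of the overexpressor was left out (0.47 to 0.70, adjusted p 0.0564 to 0.07). A fit of the 2 groups alone also removed it (adjusted p = 0.0589 from limma). The gene with the locus AT2G38240 was left out, because the table names it otherwise than the list.

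Of 6 perception genes tested, 3 fell in the overexpressor and 1 rose, whereas voom called 1 lower and 1 higher. The receptor gene *COI1* went from 23.9 ± 0.395 to 20.5 ± 0.528 FPKM (-0.21 on the log2 scale, adjusted p = 0.007 from limma), *JAV1*, a repressor of defence, had -0.56 (adjusted p = 0.0219) and *ORA59*, an activator of the ethylene-jasmonate branch, had -1.57 (adjusted p = 0.00365). *NINJA*, a corepressor adaptor, rose by 0.16 (log2, adjusted p = 0.0361), which was lost when replicate 1, 3 or 4 of wild types or 2, 3 or 4 of the overexpressor was left out (adjusted p 0.0537 to 0.0902). A replicate block (adjusted p = 0.0744 from limma) and a fit of the 2 groups alone (0.0632) also removed this call. After rescaling or with voom, *COI1* (-0.087 and -0.090) and *JAV1* (-0.44 and -0.49) were not called, and *JAV1* was not without wild-type replicate 1 (adjusted p = 0.066) or overexpressor replicate 4 (0.0591). *MYC3* and *MYC4* were not called, and *MYC2* is listed at 0 in all 12 libraries. The counting program is not given in the sources used here, so this value does not show that *MYC2* was silent.

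JAZ repressors are both parts of the receptor complex and rapid targets of the hormone. Of 11 tested, 2 rose in the overexpressor (5 by voom, which called 31.5% of all genes higher) and 0 in *glct2*. There 2 were higher and 1 lower before adjustment (10.7% and 11.6% of all genes), and voom called 0. *JAZ4* went from 0.713 to 2.20 FPKM (0.90 on the log2 scale, adjusted p = 0.000816 from limma) and *JAZ12* from 98.8 to 122 FPKM (0.31, adjusted p = 0.0402). The *JAZ12* call was lost without 8 of the 12 libraries, all but wild-type replicate 2, overexpressor replicate 1 and *glct2* replicates 2 and 3 (0.25 to 0.33, adjusted p 0.0515 to 0.119). No filter (adjusted p = 0.0535 from limma), a replicate block (0.0718) and a fit of the 2 groups alone (0.0753) removed it too. The median of the 11 was 0.31 in the overexpressor and 0.25 in *glct2*.

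The jasmonate response genes had the highest median log2 fold change of the 7 lists in the overexpressor (1.06). Of 7 genes, 3 rose and 1 fell in the overexpressor, and 0 were called in *glct2*, with 3 higher before adjustment and 0 called by voom. *VSP2*, a vegetative storage protein gene and a standard reporter of jasmonate response, had 155, 440, 56.6 and 20.4 FPKM in wild types. It had 673, 1448, 1647 and 1433 FPKM in the overexpressor and 891, 504, 520 and 604 FPKM in *glct2*. Both mutants lay wholly above wild types, which spanned more than an order of magnitude. It had a log2 fold change of 3.68 ± 0.71 (SE, adjusted p = 0.00155 from limma) with overexpression and 2.68 (adjusted p = 0.0525) in *glct2*. *VSP1* had 2.72 (adjusted p = 0.00818) and 2.40 (adjusted p = 0.0675). Without wild-type replicate 2, both passed in *glct2*, *VSP2* with 3.41 (adjusted p = 0.00712) and *VSP1* with 3.01 (adjusted p = 0.0237). Both also passed there after rescaling (adjusted p = 0.0371 and 0.046 from limma) and with library quality weights (0.013 and 0.0212). *VSP2* passed with a filter at 5 FPKM too (0.0442), whereas voom called neither. *CORI3*, a cystine lyase gene, rose by 1.06 (adjusted p = 0.00603) in the overexpressor. *TAT3*, a tyrosine aminotransferase gene of the same hormone response, fell there (-1.19, adjusted p = 0.0244) and had 0.74 (adjusted p = 0.268) in *glct2*. The fall was not called when replicate 1 or 2 of wild types or 1 of the overexpressor was left out (-1.05 to -0.93, adjusted p 0.0619 to 0.0733). Wild-type replicate 2 was highest and replicate 4 lowest for *VSP1*, *VSP2* and *CORI3*, as for most of the enzyme genes. In the overexpressor replicate 3 was highest for *VSP1* and *VSP2*, as for *AOC3*, whereas replicate 2 was highest for the other 9 enzyme genes.

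**Figure D5:**
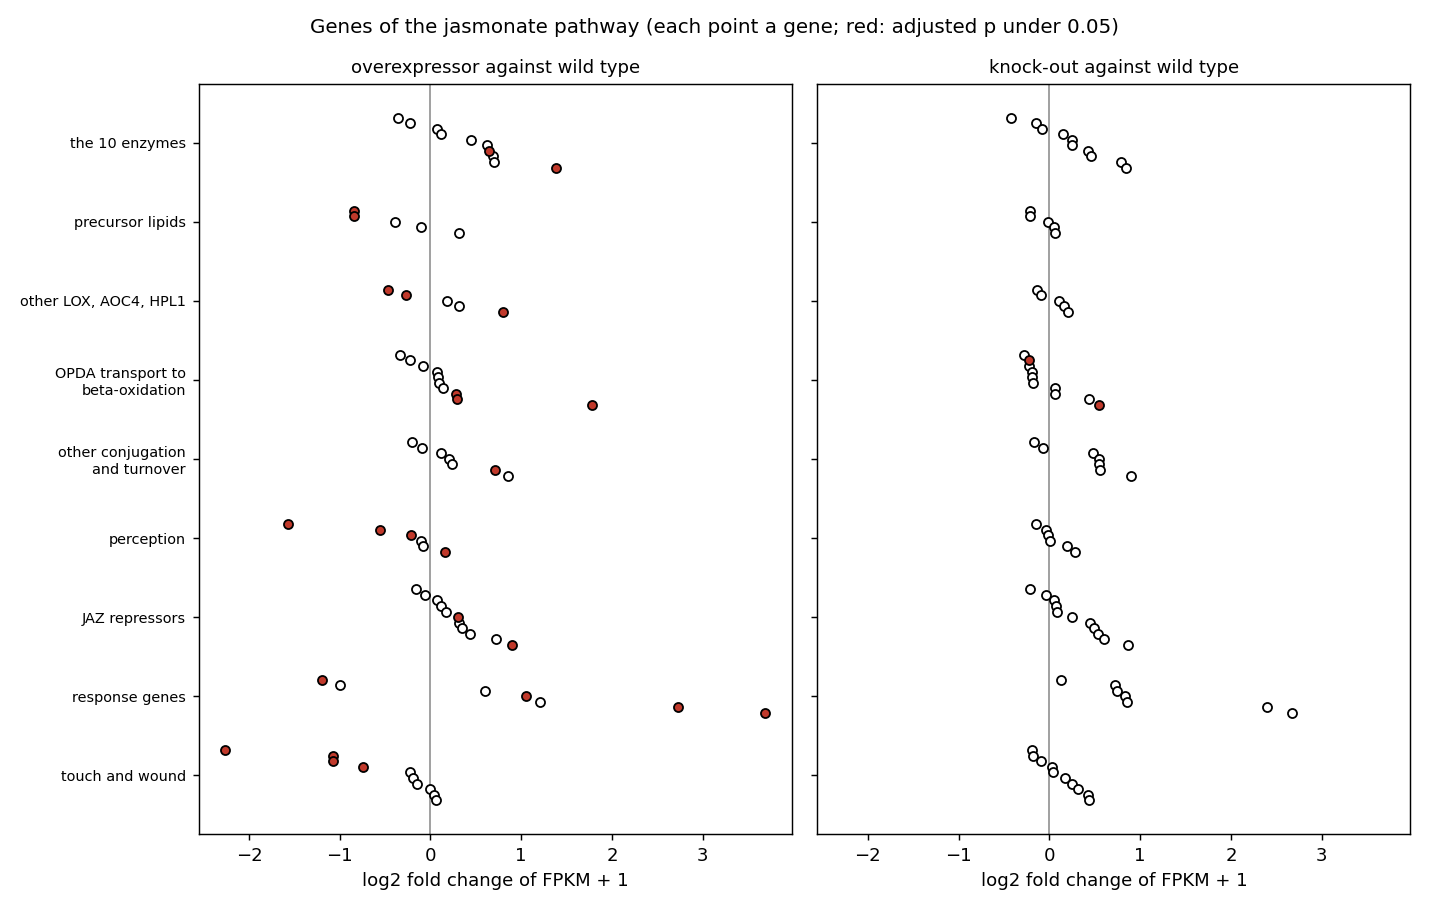
Log2 fold change of FPKM + 1 (x axis) of each tested gene (points) of the enzymes and of 8 other lists (rows) in the overexpressor and in *glct2*, both against wild types, with red points for an adjusted p under 0.05. The overexpressor has red points on both sides of 0, up to 3.68 for *VSP2* and down to -2.26 for *TCH3*, whereas *glct2* has 2, *OPR2* (0.55) and *PXA1* (-0.22).

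Early touch and wound genes were followed because handling of leaves induces both them and jasmonate synthesis. Of 10 tested, 4 fell and 0 rose in the overexpressor (3 and 0 by voom, 4 and 0 before adjustment). Of all genes tested, 19.9% were lower and 18.7% higher there (13.2% and 31.5% by voom, 24.1% and 23.5% before adjustment). In *glct2* 0 were called, with 2 higher before adjustment (10.7% of all genes) and 1 by voom (6.69%). *TCH3* fell from 46.9 ± 9.31 to 9.10 ± 2.78 FPKM (-2.26 on the log2 scale, adjusted p = 1.75e-05 from limma), *WRKY33* had -1.08 (adjusted p = 0.000151), *ERF2* -1.07 (adjusted p = 0.00487) and *ERF1A* -0.74 (adjusted p = 0.041). The *ERF1A* call was lost when replicate 1, 2 or 3 of wild types or 1, 2 or 4 of the overexpressor was left out (-0.78 to -0.54, adjusted p 0.0566 to 0.119). No filter (adjusted p = 0.0623 from limma), rescaling (0.0824), library quality weights (0.0711) and voom (0.0974) also removed it. Summed over the list, wild types had 136 to 190 FPKM and *glct2* had 110 to 210 FPKM, both above the 66.2 to 80.6 FPKM of the overexpressor. In wild-type replicate 2, where the enzymes were highest, it was 144 FPKM, and in replicate 4, where they were lowest, 136 FPKM. In overexpressor replicate 2 it was 70.7 FPKM. The part of handling in the values of the enzyme genes was not tested.

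Flower organ genes, whose tissues carry much of this pathway, were low. Their 6 genes summed to 1.52 to 3.05 FPKM in wild types and to 1.95 to 3.90 FPKM in *glct2*. In the overexpressor they summed to 2.47 to 7.97 FPKM, with the highest sum in replicate 2. Only *AP1* passed the filter, and it was not called by limma (log2 fold change 0.52, adjusted p = 0.0506). Voom called it higher in the overexpressor (adjusted p = 0.0387), as did limma when replicate 3 of wild types or 1 of the overexpressor or 3 or 4 of *glct2* was left out (adjusted p 0.0123 to 0.0489). Of the leaf genes, 3 of 6 fell in the overexpressor (1 by voom), *RCA* (-0.84, adjusted p = 0.00635), *CA1* (-1.02, adjusted p = 0.0376) and *MYB60* (-0.51, adjusted p = 0.0313). Of all genes tested, 19.9% were called lower there (13.2% by voom). The *CA1* call was lost when replicate 1, 3 or 4 of wild types or 3 or 4 of the overexpressor was left out (adjusted p 0.077 to 0.111), and the *MYB60* call when replicate 3 or 4 of wild types or 1, 3 or 4 of the overexpressor was left out (adjusted p 0.061 to 0.094). *CA1* was not called after rescaling (adjusted p = 0.0521 from limma) or with voom (0.0512), nor was *MYB60* (0.0691 and 0.06). A replicate block removed the *MYB60* call (adjusted p = 0.0515 from limma). Using no filter removed those of *CA1* (0.0586) and *RCA* (0.106). Of the root genes *SHR* fell (-0.69, adjusted p = 0.000663), and the list summed to 9.14 to 13.3 FPKM there and to at least 13.9 FPKM in wild types. In *glct2* the root list summed to 15.9 to 26.1 FPKM. Against *glct2* the 2 tested root genes were called lower in the overexpressor, where 17.7% of all genes were. The leaf list summed to 9616 FPKM in wild-type replicate 2, where most enzyme genes were highest, and to 12880 to 14801 FPKM in the other wild types. In overexpressor replicate 2 it summed to 10405 FPKM, the highest of that genotype. The part of these genes in the values of the enzyme genes was not tested.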

How the data were processed

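Leaf mRNA of 12 libraries (4 each of wild types, overexpressor line #5 and *glct2*) was analysed. The authors deposited FPKM per gene and library. Named in the submitters' processing notes are the tools StringTie 1.3.3, HISAT2 2.0.5 and fastp and the build TAIR10. The counting program and its strand setting are not given in the sources used here, and no other annotated gene overlaps the 10 enzyme genes. The 3 columns of group means were not used. FPKM times the deposited gene length was a whole multiple of 1 step (tolerance 0.01) for 100% of values above 0, which gave recovered reads.

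Genes that reached 1 FPKM in 4 or more libraries were tested as log2(FPKM + 1) with limma 3.58.1 (R 4.3.3, eBayes with trend, no replicate block), adjusted over all 18354. Tables used python 3.11.15, pandas 2.3.3 and numpy 2.4.6. The procedure was tested on simulated data with the same dispersion for all genes. The larger spread that most enzyme genes share between libraries was not simulated. The enzyme genes and the 11 other lists (89 genes, 1 left out for its name) were chosen with earlier results of these data known. Named from each other list were up to 5 genes called in either mutant, by smallest adjusted p, or the 1 with the smallest p. Other settings were median-of-ratios scaling, a filter at 5 FPKM or none, pseudocounts of 0.1 and 5, rescaling to or voom on recovered reads, a replicate block, a fit of 2 groups alone, library quality weights and leaving out each library. Deviations of same-numbered libraries from their group means correlated at 0.119 to 0.184 between the mutants. Libraries with different numbers were not compared, so whether the numbers pair the mutants cannot be told from these values. Coordinates of the 10 genes are the same in TAIR10 and RefSeq TAIR10.1.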

Additional observations from a re-analysis of the deposited data

Results flagged for a closer look

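Among the 30 groups of 4 libraries formed by the 10 enzyme genes, 2 held a library far from the other 3, both for *LOX3*. Chance alone gives about 1 in 20 such groups. In the overexpressor, replicate 1 had 7.97 FPKM where the others had 9.73 to 10.0 FPKM. In *glct2*, replicate 1 had 14.2 FPKM where the others had 9.30 to 9.62 FPKM.

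The effects of the mutants relative to the same wild types differed for 3 of the 10 enzyme genes in a direct test. Between the mutants 33.5% of all genes tested were called, so this count is not more than the table as a whole gives. The overexpressor minus *glct2* difference was -0.60 for *LOX4* (log2, adjusted p = 0.0378 from limma), 0.26 for *JAR1* (adjusted p = 0.0147) and 1.05 for *CYP94B3* (adjusted p = 0.0219). For each of these 3 genes the overexpressor and *glct2* libraries did not overlap, as for 32.4% of all genes tested, and neither mutant passed against wild types. The *LOX4* call was lost without 6 of the 12 libraries in turn, and with no filter, rescaling or voom. The *CYP94B3* call was lost without 3 of the 12, whereas that of *JAR1* held throughout.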

How the results depend on the processing

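The calls of *AOC2* in the overexpressor and of *JAR1* between the mutants held under all settings tried and in all leave-one-out fits. On leaving out single libraries the median log2 fold change of the 10 genes was 0.33 to 0.64 in the overexpressor (lowest without its replicate 2), 0.098 to 0.37 in *glct2* (lowest without wild-type replicate 4) and 0.018 to 0.30 between the mutants (lowest without overexpressor replicate 2). The count of enzyme genes called higher in the overexpressor went from 2 to 1 with no filter or with the 2 groups alone, to 4 with a replicate block, to 5 with rescaling to the recovered reads, voom or library quality weights, and to 1 to 5 when single libraries were left out. The share of all genes called higher there was 18.7% as reported, 13.7% with no filter, 15.9% with the 2 groups alone, 17.5% with the block, 31.5% with rescaling or voom and 21.7% with weights, and 14.5 to 19.4% on leaving out libraries. The count called lower there was 0 to 1 on leaving out libraries, beside 16.9 to 20.4% of all genes. In *glct2* against wild types the count higher went from 0 to 1 with voom and with library weights, and was 0 to 1 on leaving out libraries, where all genes went from 1.95% to 6.69% with voom, 4.47% with weights and 0.501 to 2.75% on leaving out libraries. Between the mutants the count higher went from 2 to 1 with a filter at 5 FPKM, which removes *CYP94B3*, and was 1 to 2 on leaving out libraries. Of all genes tested, 15.9% were called higher as reported, 17.3% with that filter and 12.3 to 17.5% on leaving out libraries. The count lower between them went from 1 to 0 with no filter, rescaling or voom, and was 0 to 1 on leaving out libraries. Of all genes, 17.7% were called lower as reported, 12.1% with no filter, 16.0% with rescaling and 15.8% with voom. It was 14.6 to 18.4% on leaving out libraries. Beyond the filter, the cause was not tested.

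Deviations of same-numbered libraries correlated from -0.329 to 0.328 between wild types and the mutants, and whether the numbers pair these libraries cannot be told either. With the block, *LOX2* (adjusted p = 0.0334) and *OPR3* (0.0477) were also called in the overexpressor, and all genes called in *glct2* went from 357 higher and 481 lower to 215 and 278. The block changed no call of the 10 genes between the mutants.

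Values in *glct2* against wild types changed sign with rescaling and voom for *FAD3* (0.089 and 0.091), *LOX6* (0.017 and 0.018), *ERF2* (0.013 and 0.013), *SHR* (0.039 and 0.048) and *LOX3* (0.024 and 0.031, and 0.0083 with library weights). With library weights *ERF1A* had -0.032 there and *AOC3* 0.038 between the mutants. On leaving out libraries, values spanned 0 in *glct2* for *LOX3* (-0.22 to 0.051), *AOC3* (-0.026 to 0.29), *FAD3* (-0.083 to 0.012), *FAD8* (-0.099 to 0.23), *NINJA* (-0.0068 to 0.037), *CORI3* (-0.062 to 0.35), *ERF2* (-0.24 to 0.054), *ERF1A* (-0.13 to 0.23), *AP1* (-0.11 to 0.11), *SHR* (-0.13 to 0.022), *CA1* (-0.41 to 0.026), *FAMT* (-0.073 to 0.43) and *MVP1* (-0.082 to 0.095). They did so between the mutants for *AOC1* (-0.31 to 0.11), *AOC3* (-0.21 to 0.10), *ARGAH2* (-0.39 to 0.038) and AT5G53750 (-0.019 to 0.20), and in the overexpressor for *AOC3* (-0.038 to 0.16). None of these was called.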

Other observations

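The genes outside all lists whose levels followed the mean of the 10 enzyme genes most closely over the 12 libraries were *FAMT* (Pearson r 0.95), AT3G50280 (0.94), *ARGAH2* (0.93), *MVP1* (0.93) and AT5G53750 (0.91). These correlations are a description, and the libraries share 3 genotypes. The enzyme genes themselves had r from 0.40 (*JAR1*) to 0.94 (*OPR3*) with the mean of which they are part. *ARGAH2*, an arginase gene, had 78.1 to 228 FPKM in wild types, 155 to 376 FPKM with overexpression and 198 to 294 FPKM in the knock-out. *FAMT*, a carboxyl methyltransferase gene, was at 24.6 to 71.9 FPKM, 45.7 to 97.9 FPKM and 39.8 to 65.0 FPKM. Of the 5, AT3G50280, an uncharacterised acetyltransferase gene, was called in the overexpressor (1.13 on the log2 scale, adjusted p = 0.0244 from limma), a call that was lost when replicate 3 or 4 of wild types or 2 of the overexpressor was left out (adjusted p 0.0548 to 0.0752), and none was called in *glct2*.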
